A study of Mus musculus with 80 samples.

Results

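The mouse Akr1b genes Akr1b3, Akr1b7, Akr1b8 and Akr1b10 were followed across 4 tissues and 4 genotypes. They make up 4 of the 32764 gene rows of the count files and lie side by side on chromosome 6. They were chosen because Akr1b7 rose strongly in brown adipose tissue (BAT) of mice without UCP1, so their levels in BAT with and without UCP1 are a description and carry no test. RNA was sequenced from liver, muscle, BAT and inguinal white fat (iWAT) of wild-type (WT) mice, of UCP1 KO and FGF21 KO mice and of the double KO of both genes (dKO), with 5 libraries for each tissue and genotype and 80 in all. All mice were male C57BL/6J, were raised at 30 °C, were moved to 23 °C at an age of 10 to 12 weeks and had then received high-fat diet (HFD) for 3 weeks. UCP1, uncoupling protein 1, lets brown fat mitochondria turn fuel into heat, and FGF21 is a hormone that liver and stressed fat release. The mice were bred as homozygous knockouts, and no tissue-specific Cre is named. The genotype label of the dKO reads UCP1/FGF12 double KO, while the study's text describes a cross of UCP1 KO with FGF21 KO mice. No label linked the libraries of a mouse, and p-values measure the spread between the 5 libraries of a group.

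Aldo-keto reductases use NADPH to reduce aldehydes and ketones to alcohols. Akr1b3 is aldose reductase, the first enzyme of the polyol pathway, in which glucose is reduced to sorbitol and sorbitol is then oxidized to fructose by Sord. Akr1b7 was first known as a protein of the vas deferens and is abundant in the adrenal cortex, where it reduces isocaproaldehyde, a by-product of steroid synthesis. It can also make prostaglandin F2α and reduces lipid aldehydes such as 4-hydroxynonenal. Akr1b8 was found as a gene induced by fibroblast growth factor and likewise reduces lipid aldehydes. In bulk tissue, a change in the number of expressing cells and a change in RNA per cell cannot be told apart.

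On GRCm38, Akr1b3 lies at chr6:34302434-34317478 on the minus strand. Akr1b8 (chr6:34354119-34368463), Akr1b10 (chr6:34384218-34396950) and Akr1b7 (chr6:34412334-34423142) follow it on the plus strand, and the 4 genes span 121 kb. Each had 10 exons and a transcript of between 1281 and 1387 bases. The coding sequence of Akr1b7 was 89.3% identical to that of Akr1b10 and 85.7% to that of Akr1b8, and Akr1b8 and Akr1b10 were 85.5% identical. Akr1b3 shared between 72.2% and 73.1% with the other three. The stretches in which these paralogs are hardest to tell apart are printed here in capitals with their flanks, since the runs themselves hold no distinguishing base. Akr1b7 and Akr1b10 shared a run of 59 bases within coding bases 235 to 317.
Akr1b7: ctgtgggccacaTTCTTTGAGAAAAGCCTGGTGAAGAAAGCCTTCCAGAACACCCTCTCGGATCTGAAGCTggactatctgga
Akr1b10: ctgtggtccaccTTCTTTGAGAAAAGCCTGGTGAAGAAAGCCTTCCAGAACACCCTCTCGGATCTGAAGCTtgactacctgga
Akr1b8 and Akr1b10 shared a run of 80 bases within coding bases 463 to 566.
Akr1b8: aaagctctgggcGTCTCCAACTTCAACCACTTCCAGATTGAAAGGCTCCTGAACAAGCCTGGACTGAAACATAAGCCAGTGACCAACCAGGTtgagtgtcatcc
Akr1b10: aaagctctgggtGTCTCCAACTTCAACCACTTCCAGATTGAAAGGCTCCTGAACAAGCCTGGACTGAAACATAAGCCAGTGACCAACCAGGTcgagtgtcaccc
No window of 100 bases, the read length, was identical in the coding sequences of any pair, so a read that lies whole in the coding sequence carries at least 1 differing base. An antisense gene at Akr1b3, Gm14546, and a gene that overlaps Akr1b7, Gm13857, were not analysed here, and whether reads were counted by strand is not given in the sources used here.

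The sequences just upstream of the 3 plus-strand genes are printed to show how far the promoters of such close paralogs resemble each other. They are from RefSeq (GRCm38.p6), plus strand, from 250 bases before the RefSeq start to the last base before the annotated gene. Capitals mark matches on either strand to the motifs searched.
Akr1b7, chr6:34412112-34412333: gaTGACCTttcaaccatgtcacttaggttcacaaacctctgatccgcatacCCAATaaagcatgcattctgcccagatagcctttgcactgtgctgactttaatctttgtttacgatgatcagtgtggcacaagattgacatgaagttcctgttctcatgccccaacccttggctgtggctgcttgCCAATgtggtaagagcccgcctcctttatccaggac
Akr1b10, chr6:34383997-34384217: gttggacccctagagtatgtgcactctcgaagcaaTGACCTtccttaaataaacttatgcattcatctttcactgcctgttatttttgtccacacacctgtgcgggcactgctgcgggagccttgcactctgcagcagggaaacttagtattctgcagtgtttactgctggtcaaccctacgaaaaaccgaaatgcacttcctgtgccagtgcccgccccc
Akr1b8, chr6:34353896-34354118: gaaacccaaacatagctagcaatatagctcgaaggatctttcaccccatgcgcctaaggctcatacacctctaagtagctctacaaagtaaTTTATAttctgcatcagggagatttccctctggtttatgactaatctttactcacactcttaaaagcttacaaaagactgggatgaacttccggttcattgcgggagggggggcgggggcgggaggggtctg
The longest run shared between the printed sequences was 9 bases, between Akr1b8 and Akr1b10. Over the whole 250 bases before the RefSeq start it was 13 bases, between Akr1b7 and Akr1b10. That run began 79 bases before the start of Akr1b7 and 28 before that of Akr1b10, in a part not printed for Akr1b10. Motifs were searched in the whole 250 bases before the RefSeq start, of which the printed sequences leave out the last 27 to 29. The nuclear receptor half-site AGGTCA was found 248 bases before the start of Akr1b7 and 215 bases before that of Akr1b10, and 14.0% of the 32851 RefSeq windows of the same length hold it. The CCAAT box was found at 199 and 64 bases before the start of Akr1b7, against 33.8% of all windows, and TATAAA at 159 bases before that of Akr1b8, against 12.4%. The antioxidant response element core TGACNNNGC (10.2% of windows), the cAMP response element part TGACG (17.8%) and the C/EBP-ATF element TTGCATCA (0.791%) had no match in the 3 windows. Akr1b3 was not among the promoter entries.

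Libraries held between 28691377 and 50380696 counts on genes. Ucp1 counts in BAT ranged from 98548 to 258096 in the genotypes with UCP1 and from 24291 to 90118 in UCP1 KO and dKO, so reads on the targeted gene remained. Fgf21 had 353 to 1728 counts in UCP1 KO BAT, 7 to 10 in WT and at most 3 in FGF21 KO and dKO BAT. Its near absence in dKO goes with the study's text rather than with the FGF12 of the label. In iWAT, Ucp1 had between 3942 and 20264 counts in UCP1 KO and at most 1189 in the other genotypes. Markers of other tissues varied between libraries of both fat depots. Skeletal muscle markers (10 genes) summed to between 27.3 and 120 CPM in WT BAT and between 59.3 and 8896 CPM in UCP1 KO BAT. Lymph node markers split the iWAT libraries into 9 with a high and 11 with a low score. Both are given below beside the results they move with.

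Under WT conditions the members differed in where they were expressed. Levels are compared here as CPM, the counts scaled to library size, per kilobase of transcript (CPM per kb), scaled over all tissues. Akr1b3 was highest in muscle at 129 ± 12.6 CPM per kb (SD, n = 5), followed by iWAT (54.7 ± 5.07), BAT (43.9 ± 1.40) and liver (6.26 ± 0.319). Akr1b10 was highest in BAT at 71.4 ± 4.67 CPM per kb, followed by muscle (53.5 ± 2.56), iWAT (15.2 ± 1.03) and liver (1.70 ± 0.329). Akr1b8 was similar in BAT (12.5 ± 1.54 CPM per kb) and iWAT (12.0 ± 3.43) and low in liver (2.03 ± 0.327) and muscle (1.83 ± 0.214). Akr1b7 was barely detected, with 4 to 9 counts per library in WT liver (0.176 ± 0.0597 CPM per kb) and 0 to 3 counts in the other WT tissues.

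For Akr1b3, Akr1b8 and Akr1b10, 7 of the 9 pairs of neighbouring tissues in these orders were separated without overlap. Each of these had p = 0.00794 in a two-sided exact permutation test, the smallest that 5 against 5 libraries can give, and an adjusted p of 0.0119 over the 12 pairs of all 4 members. Akr1b7 is given no test here, since its WT BAT values were used in choosing it and its WT counts are low. For Akr1b3, muscle exceeded iWAT by 1.24, iWAT exceeded BAT by 0.31 and BAT exceeded liver by 2.80 on the log2 scale. For Akr1b10, BAT exceeded muscle by 0.42, muscle exceeded iWAT by 1.81 and iWAT exceeded liver by 3.16. The pairs not separated were Akr1b8 in BAT and iWAT (adjusted p = 0.587, exact permutation) and Akr1b8 in liver and muscle (0.362).

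**Figure D1:**
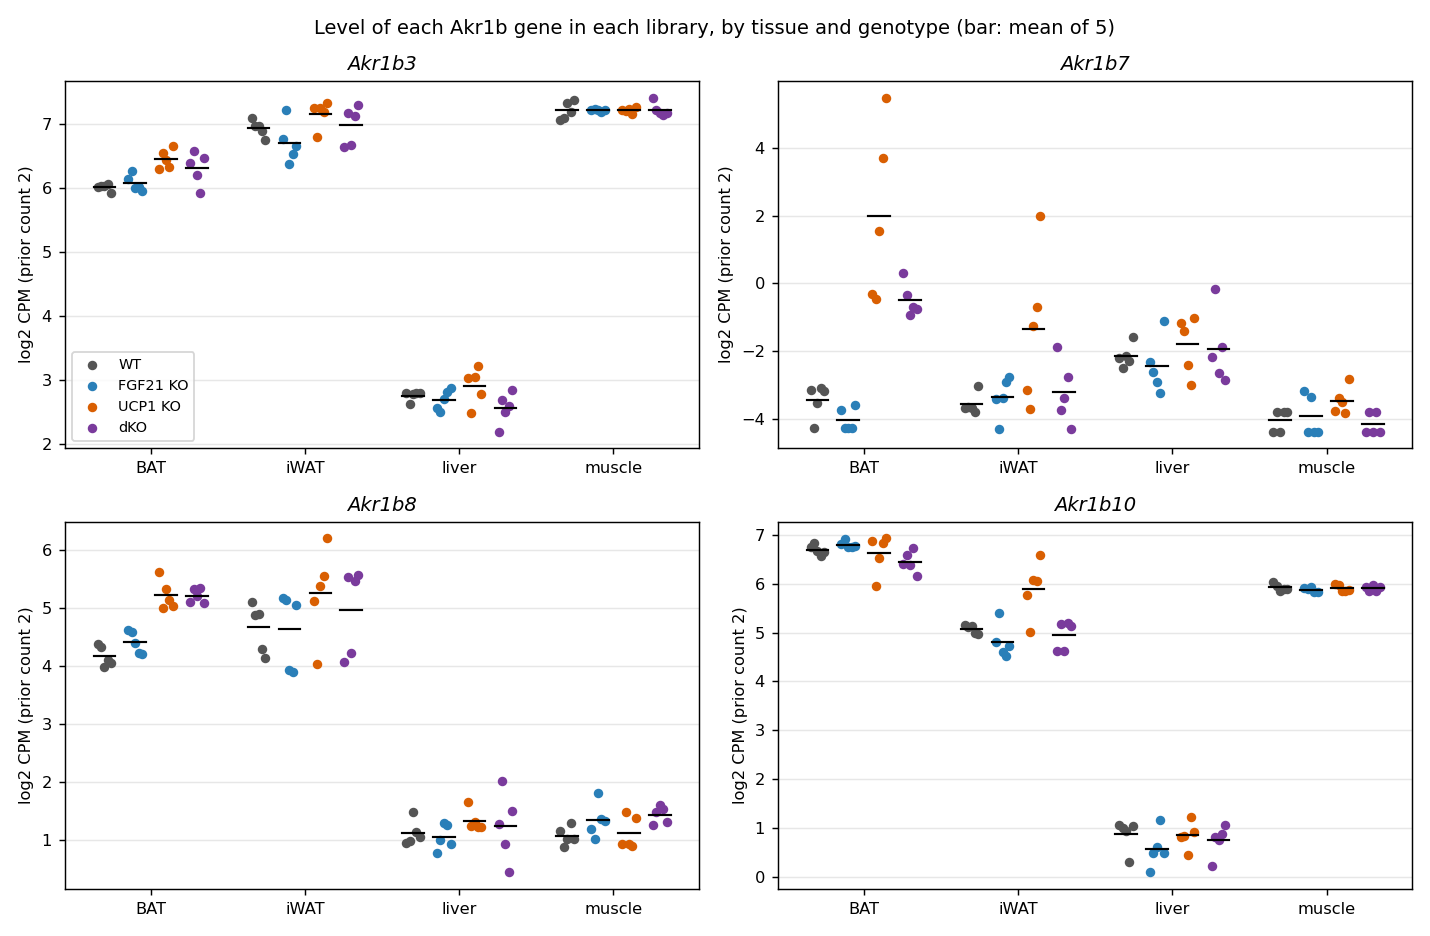
Level of each Akr1b gene in each of the 80 libraries, as log2 CPM with a prior count of 2, by tissue (x axis) and genotype (colour). Points are libraries and bars are means of 5. Akr1b7 stands out in the UCP1 KO libraries of BAT, whose points spread over more than 5 log2 units, while Akr1b3 and Akr1b10 in muscle lie close together in every genotype.

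In BAT, Akr1b7 was near absent with UCP1 and present in every library without it. It had 2, 0, 1, 2 and 2 counts in the WT libraries and 1, 0, 0, 0 and 1 in FGF21 KO. In UCP1 KO it had 28, 27, 142, 671 and 2038 counts, and in dKO 51, 28, 20, 22 and 26. The lowest library without UCP1 therefore had 20 counts and the highest with UCP1 had 2. Scaled to library size, UCP1 KO libraries reached 0.75, 0.67, 2.89, 13.05 and 44.44 CPM, and the dKO libraries 1.18, 0.73, 0.47, 0.57 and 0.54 CPM. Since all libraries with UCP1 were under the floor of 3 counts per library (0.0972 CPM on average in WT), the fold is a lower bound. The UCP1 KO mean was at least 127-fold higher than WT, and the dKO mean at least 7.77-fold higher than FGF21 KO. The fitted log2 values were 8.00 and 5.55, but they depend on the prior count. Leaving out 1 library, they ranged from 6.50 to 8.31 and from 5.28 to 6.08.

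The size of the rise in UCP1 KO rested on few libraries. Replicate 5 held 70.1% of the Akr1b7 counts of UCP1 KO BAT, and the highest library was 65.9 times the lowest. Over the WT floor, the UCP1 KO libraries were at least 7.73-fold, 6.94-fold, 29.8-fold, 134-fold and 457-fold higher, and without replicate 5 their mean was at least 44.7-fold higher. The dKO libraries were tightly grouped by comparison, and 2 of the 5 UCP1 KO libraries lay within their range.

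Akr1b8 was also higher in BAT without UCP1, in every library and with little spread. Levels were 20.7, 20.1, 15.7, 17.1 and 16.5 CPM in WT and 24.7, 24.1, 21.0, 18.6 and 18.5 CPM in FGF21 KO. It had 49.2, 31.9, 40.2, 35.1 and 32.9 CPM in UCP1 KO and 34.6, 40.2, 36.9, 40.6 and 34.1 CPM in dKO. The UCP1 KO mean was 2.10-fold that of WT (fitted log2 difference 1.07, SE 0.12) and the dKO mean 1.74-fold that of FGF21 KO (log2 difference 0.80), and the libraries overlapped in neither comparison.

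Akr1b3, the aldose reductase, moved less. Its BAT levels were 64.5, 65.5, 65.1, 66.4 and 60.8 CPM in WT and 78.8, 93.1, 87.0, 80.1 and 100.2 CPM in UCP1 KO, 1.36-fold higher without overlap (log2 difference 0.45, SE 0.10). In FGF21 KO they were 70.4, 77.1, 63.9, 64.9 and 61.8 CPM and in dKO 83.8, 94.9, 73.8, 60.3 and 88.8 CPM, where the libraries overlapped (log2 difference 0.25, SE 0.10).

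Akr1b10, the most abundant member in WT BAT, was not higher without UCP1. It had 107.2, 113.6, 101.2, 95.5 and 100.6 CPM in WT and 116.5, 62.3, 92.7, 114.7 and 121.7 CPM in UCP1 KO, with a log2 difference of -0.03 and overlapping libraries. It had 112.8, 121.3, 107.8, 107.6 and 109.3 CPM in FGF21 KO and 84.7, 95.9, 83.1, 106.2 and 71.7 CPM in dKO, all of them below FGF21 KO (log2 difference -0.34, SE 0.14).

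Counted without overlap, 3 of the 4 members separated UCP1 KO from WT, all higher, against 23.5% of the 15729 genes tested in BAT. In dKO against FGF21 KO 3 separated as well, Akr1b7 and Akr1b8 higher and Akr1b10 lower, against 18.6%. The same fit called 25.2% of all genes between UCP1 KO and WT and 13.5% between dKO and FGF21 KO at an adjusted p under 0.01. Nothing is read from the members' counts in these comparisons, which were used in choosing them. The comparisons share no libraries.

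As a share of all Akr1b reads per base of transcript, Akr1b10 made up 55.8% ± 1.41 (SD, n = 5) in WT BAT and 55.9% in FGF21 KO. It made up 42.0% ± 5.85 in UCP1 KO and 42.8% ± 5.21 in dKO. Akr1b8 took 9.79% in WT, 10.7% in FGF21 KO, 16.3% in UCP1 KO and 18.3% in dKO. Akr1b7 was at 0.0257% in WT and 4.72% in UCP1 KO, where it ranged from 0.328% to 15.8% between libraries, and at 0.362% in dKO. Even in the UCP1 KO library with most Akr1b7 it was thus a minor part of the family. The family's summed level was 135 ± 6.78 CPM per kb in WT BAT, 146 in FGF21 KO, 175 ± 30.3 in UCP1 KO and 150 in dKO.

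**Figure D2:**
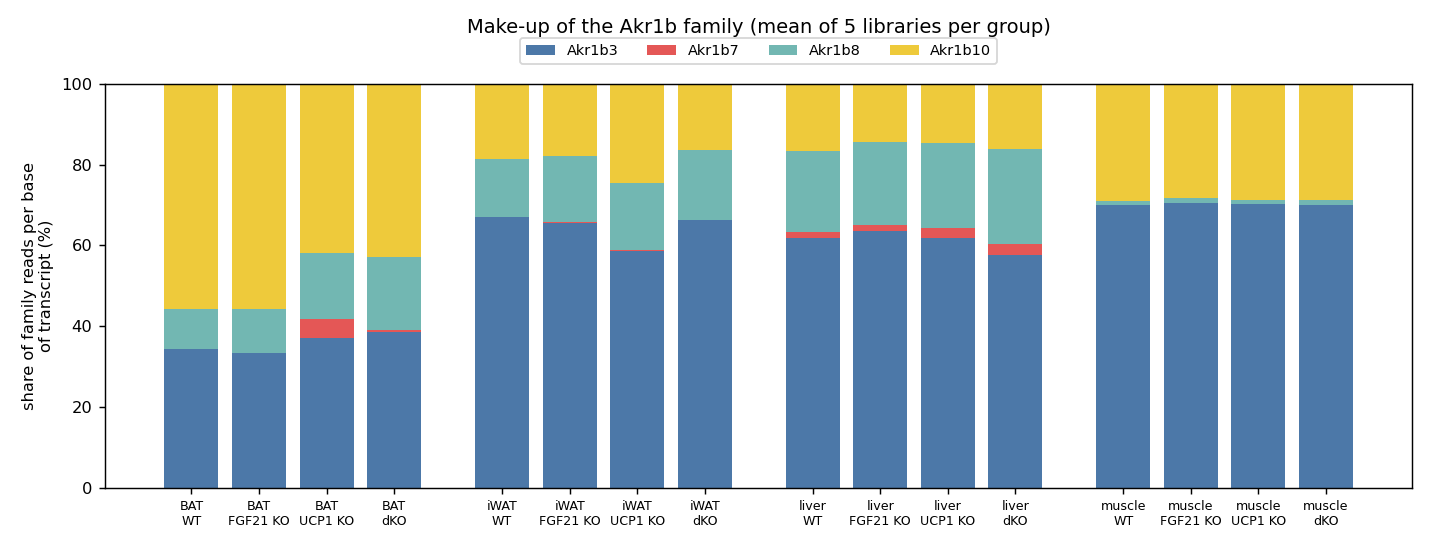
Make-up of the Akr1b family in each tissue and genotype: share of the family's reads per base of transcript (y axis, %), as the mean of 5 libraries. Akr1b10 falls from 55.8% in WT BAT to 42.0% in UCP1 KO BAT, Akr1b3 leads in the other tissues, and Akr1b7 is visible as a band in UCP1 KO BAT (4.72%).

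Composition moved with the BAT groups. Skeletal muscle scores, the mean log2(CPM + 0.1) over the 10 markers, were 1.6, 1.9, 3.1, 3.0 and 1.1 in WT, 1.3, 4.0, 1.6, 1.3 and 4.9 in FGF21 KO, 2.2, 9.4, 5.9, 4.7 and 2.1 in UCP1 KO and 8.3, 2.6, 8.5, 8.4 and 4.7 in dKO. The UCP1 KO library with most Akr1b7 had a muscle score of 2.1, and the one with the lowest Akr1b10 had 9.4. Muscle itself had no more than 4 Akr1b7 counts in any library, and the part of muscle RNA in the Akr1b7 levels was not tested. Macrophage scores were 2.9 to 3.3 in WT, 2.8 to 3.5 in FGF21 KO, 3.4 to 4.8 in UCP1 KO and 3.0 to 4.1 in dKO, and 6 of 8 macrophage markers rose in UCP1 KO against WT. Hepatocyte scores (6 markers) were 2.32 to 2.57 in dKO, against 0.49 to 1.15 in WT, 0.11 to 2.56 in FGF21 KO and 0.63 to 2.02 in UCP1 KO. The part of macrophages and of hepatocyte RNA in the Akr1b levels was not tested. Of the adrenal cortex markers, Hsd3b1 was at 0 in every BAT library, Cyp11b1 and Cyp11b2 had at most 1 count, Cyp21a1 at most 3 and Nr5a1 at most 4. Cyp11a1 had 1 to 21 counts, Star 39 to 91 and Mc2r 17 to 161. The whole list of 8 summed to 4.79 to 6.84 CPM in WT BAT and 2.44 to 3.72 CPM in UCP1 KO BAT, and their part in the Akr1b7 levels was not tested.

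Between the genotypes without UCP1, the comparison that asks whether FGF21 matters for the members in BAT, none of Akr1b3, Akr1b8 and Akr1b10 passed the test. Akr1b7 was 17.7-fold higher in the mean of UCP1 KO than of dKO, but the libraries overlapped (log2 difference 4.14, SE 0.86). Without UCP1 KO replicate 5 the log2 difference was 2.64, and with the muscle score as a covariate it was 2.75. Its UCP1 KO values were among those that chose it, so this is a description with no test. Akr1b8 differed by 0.02 (edgeR adjusted p = 0.955), with an interval of 2 SE from -0.21 to 0.26. For Akr1b3 the difference was 0.13 (edgeR adjusted p = 0.618) and for Akr1b10 0.20 (edgeR adjusted p = 0.560). Of all genes tested, 0.0636% were called here and 1.23% had libraries that did not overlap, which held for none of the members. FGF21 loss alone, FGF21 KO against WT, gave 0 calls among the 3 other members and 0.0% among all genes in edgeR, where 1345 genes had an unadjusted p under 0.05 and DESeq2 called 30. None of these 3 had an unadjusted p under 0.05 there, and DESeq2 called none of them. Akr1b7, with 0 to 2 counts per library in both genotypes, passed the filter on low counts only through the groups without UCP1 and is not read here.

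**Figure D3:**
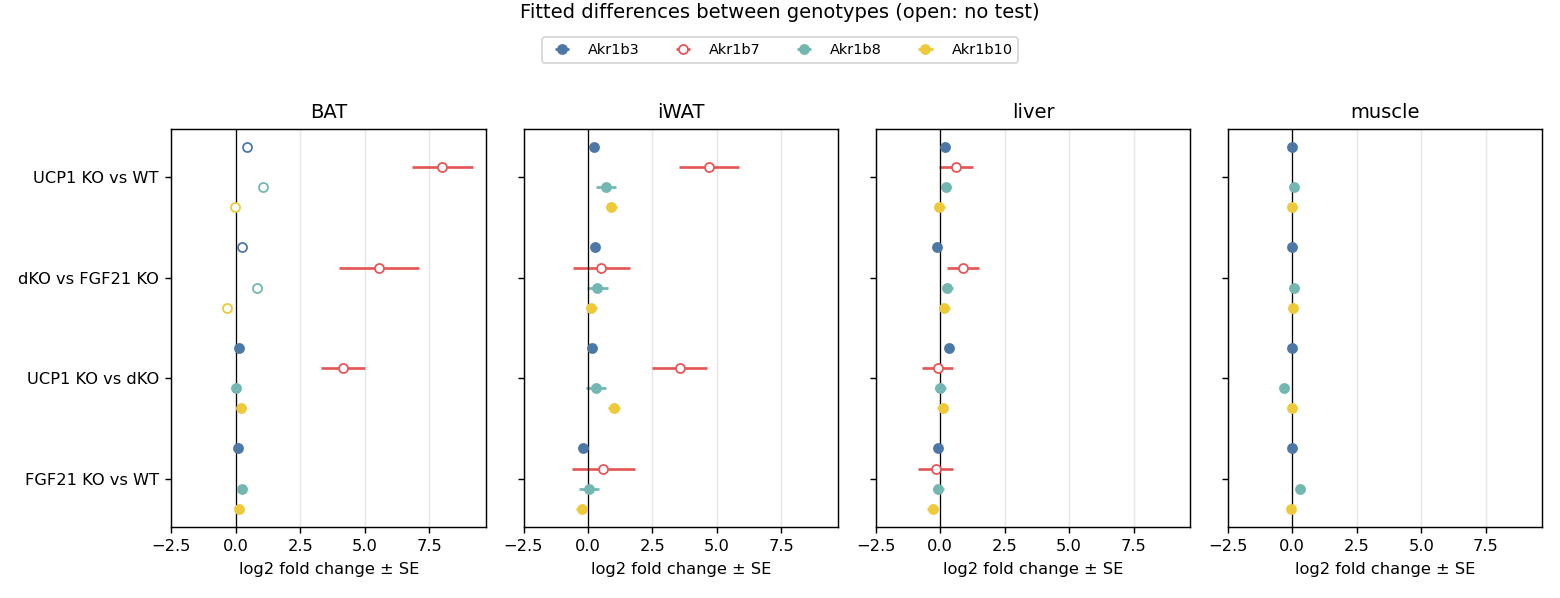
Fitted log2 fold change (x axis) with its SE for each member, tissue and pair of genotypes. Open circles carry no test, and no filled circle passed an adjusted p of 0.01. Akr1b7 has the widest error bars, and its fitted values against groups near 0 counts depend on the prior count.

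In iWAT, Akr1b10 was the member that differed most clearly between genotypes. It had 35.8, 34.7, 35.1, 32.0 and 31.3 CPM in WT, 27.7, 42.1, 24.4, 22.8 and 26.3 CPM in FGF21 KO, 54.2, 32.2, 67.1, 66.1 and 96.5 CPM in UCP1 KO and 24.4, 36.1, 24.6, 36.8 and 34.9 CPM in dKO. Of the UCP1 KO libraries 4 lay above every library of the other genotypes, and the 5th lay within them. The UCP1 KO mean was 1.87-fold that of WT (log2 difference 0.90, SE 0.23, edgeR adjusted p = 0.0387) and 2.02-fold that of dKO (log2 difference 1.01, SE 0.23, edgeR adjusted p = 0.0257), short of the threshold of 0.01 in both. The interaction, which asks whether the effect of UCP1 loss differed with and without FGF21, was 0.77 on the log2 scale (SE 0.32, edgeR adjusted p = 0.413).

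The iWAT libraries differed in lymph node content, and Akr1b10 moved with it. Lymph node scores, from 8 B and T cell markers, were 6.48 to 7.48 in 9 libraries and -0.06 to 1.83 in 11. The high libraries were WT replicates 4 and 5, FGF21 KO replicates 1, 3, 4 and 5, UCP1 KO replicate 2 and dKO replicates 1 and 3. Akr1b10 was at 22.8 to 32.2 CPM in the high and 34.7 to 96.5 CPM in the low libraries, and Akr1b3 at 83.0 to 118.9 and 125.3 to 159.9 CPM. Akr1b8 overlapped, with 14.8 to 36.0 CPM in the high and 29.5 to 73.9 CPM in the low libraries. Among the low libraries alone, Akr1b10 was higher in UCP1 KO than in WT by 0.99 (edgeR adjusted p = 0.00434) and than in dKO by 0.95 (edgeR adjusted p = 0.0112). In a fit that held the lymph node score as a term, these differences were 0.73 (edgeR adjusted p = 0.00411) and 0.89 (edgeR adjusted p = 0.00112), and both passed the threshold of 0.01. Skeletal muscle scores also varied, from 1.07 to 9.50 in WT, 1.18 to 7.57 in FGF21 KO, 1.58 to 10.21 in UCP1 KO and 1.52 to 5.09 in dKO. With the muscle score as a term, Akr1b10 in UCP1 KO differed from WT by 0.91 (edgeR adjusted p = 0.0455) and from dKO by 1.02 (edgeR adjusted p = 0.0354). Over 7 alternative settings the adjusted p of Akr1b10 (edgeR or DESeq2) ranged from 0.00245 to 0.0845 against WT and from 0.000667 to 0.150 against dKO. Leaving out 1 library, the edgeR adjusted p ranged from 0.00295 to 0.150 and from 0.00166 to 0.0956.

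Akr1b7 was also seen in part of the UCP1 KO libraries of iWAT, at lower counts than in BAT. It had 1, 1, 1, 1 and 3 counts in WT, 2, 0, 2, 4 and 5 in FGF21 KO, 2, 1, 10, 17 and 109 in UCP1 KO and 11, 1, 2, 4 and 0 in dKO. By replicate number the UCP1 KO libraries ranked as in BAT, but the labels do not say whether equal numbers mark the same mouse. Replicate 5 held 78.4% of the UCP1 KO counts, and 2 of the 5 libraries were in the range of WT. The UCP1 KO mean was at least 12.8-fold higher than the WT floor, with a fitted log2 difference of 4.67 (SE 1.16). Against dKO it was 3.56 (SE 1.06). The other 3 genotypes summed to 38 counts, with at most 11 in a library, so the gene passed the filter on low counts only through UCP1 KO and these values carry no test. Without UCP1 KO replicate 5 the gene no longer passed the filter on low counts.

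Akr1b8 and Akr1b3 overlapped between all genotypes in iWAT. Akr1b8 had 34.6, 29.5, 30.0, 19.7 and 17.6 CPM in WT and 34.9, 16.4, 42.0, 47.4 and 73.9 CPM in UCP1 KO (log2 difference 0.71, edgeR adjusted p = 0.442). Akr1b3 had 136.2, 125.5, 125.3, 118.9 and 107.3 CPM in WT and 151.3, 110.5, 151.4, 145.9 and 159.9 CPM in UCP1 KO (log2 difference 0.23, edgeR adjusted p = 0.590). The lowest UCP1 KO library of both was replicate 2, the one with a high lymph node score.

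In the edgeR fit of all 20 iWAT libraries with no covariate, none of Akr1b3, Akr1b8 and Akr1b10 was called in any comparison at an adjusted p under 0.01. Of the 17380 genes tested, 0.61% were called for UCP1 KO against WT, 0.466% for UCP1 KO against dKO, 0.0115% for dKO against FGF21 KO, 0.00575% for FGF21 KO against WT and 0.0% for the interaction. For the interaction, 1734 genes had an unadjusted p under 0.05 and DESeq2 called 62. At an adjusted p under 0.05 edgeR called 1 of these 3, Akr1b10, for UCP1 KO against WT, against 2.59% of all genes, and likewise for UCP1 KO against dKO, against 2.32%. DESeq2 called Akr1b10 at 0.01 in both comparisons, where it called 597 and 535 of the 17380 genes. Libraries that did not overlap were found for 3.83% of genes in UCP1 KO against WT and 2.09% in UCP1 KO against dKO, and for none of the members. The comparisons of UCP1 KO with WT and with dKO share the UCP1 KO libraries.

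In liver and muscle the members differed little between genotypes. In liver Akr1b3 ranged from 4.54 to 9.23 CPM over the 20 libraries, Akr1b8 from 1.30 to 4.0 CPM and Akr1b10 from 1.01 to 2.27 CPM. The fitted log2 differences of these 3 in liver lay between -0.29 and 0.35. Akr1b7 had 2 to 15 counts in liver, except for a dKO library with 34 through which alone it passed the filter, and its differences there carry no test. In muscle, Akr1b3 averaged 148 CPM in WT, FGF21 KO and UCP1 KO and 149 CPM in dKO, and Akr1b10 between 58.9 and 60.8 CPM. Akr1b8 averaged 2.06 CPM in WT, 2.53 in FGF21 KO, 2.16 in UCP1 KO and 2.66 in dKO. The log2 differences in muscle lay between -0.30 and 0.29, and Akr1b7, with 0 to 4 counts, was not tested.

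None of the 3 was called by edgeR in liver or muscle. Among the 14407 genes tested in liver, 0.0694% were called for UCP1 KO against WT, 0.00694% for dKO against FGF21 KO and for UCP1 KO against dKO, 0.229% for FGF21 KO against WT and 0.0% for the interaction. Among the 15114 tested in muscle the shares were 0.0265%, 0.0595%, 0.0%, 0.00662% and 0.0% in the same order. For the counts of 0 in edgeR, an unadjusted p under 0.05 was found for 743 genes in the liver interaction, 1774 in UCP1 KO against dKO in muscle and 1131 in the muscle interaction, and DESeq2 called 9, 20 and 0. A single test of these 3 members in both tissues had an unadjusted p under 0.05, Akr1b3 in liver for UCP1 KO against dKO (log2 difference 0.35, edgeR adjusted p = 0.579), and DESeq2 called none of them there. Over the 4 tissues, 51 tests of Akr1b3, Akr1b8 and Akr1b10 not used in the choice gave 0 calls in edgeR and 2 by DESeq2. An unadjusted p under 0.05 was found in 4. Of these, 3 were Akr1b10 in iWAT, where 2551 (UCP1 KO against WT), 2475 (UCP1 KO against dKO) and 1734 (interaction) of 17380 genes had one. The other was in liver, where 1188 of 14407 genes had one. Both DESeq2 calls were Akr1b10 in iWAT, where DESeq2 called 597 and 535 genes.

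The genes around the cluster moved in both directions in BAT. Of the 6 nearest protein-coding neighbours 5 were tested, and 3 of them fell in UCP1 KO against WT, where 25.2% of all genes were called, namely Slc35b4 (log2 difference -0.67, edgeR adjusted p = 0.00639), Bpgm, the mutase of red cell glycolysis (-0.67, edgeR adjusted p = 0.000113), and Agbl3 (-0.62, edgeR adjusted p = 0.000488). Cald1, an actin-binding protein, was at 0.49 (edgeR adjusted p = 0.0117) and Exoc4, of the exocyst, at 0.11 (edgeR adjusted p = 0.194), and Lrguk was not tested. In dKO against FGF21 KO, where 13.5% of all genes were called, Bpgm (-0.49, edgeR adjusted p = 0.00292) and Agbl3 (-0.57, edgeR adjusted p = 0.00182) fell and Cald1 rose (0.59, edgeR adjusted p = 0.00587). In iWAT no neighbour was called in UCP1 KO against WT, where the adjusted p in edgeR lay between 0.896 and 0.999.

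**Figure D4:**
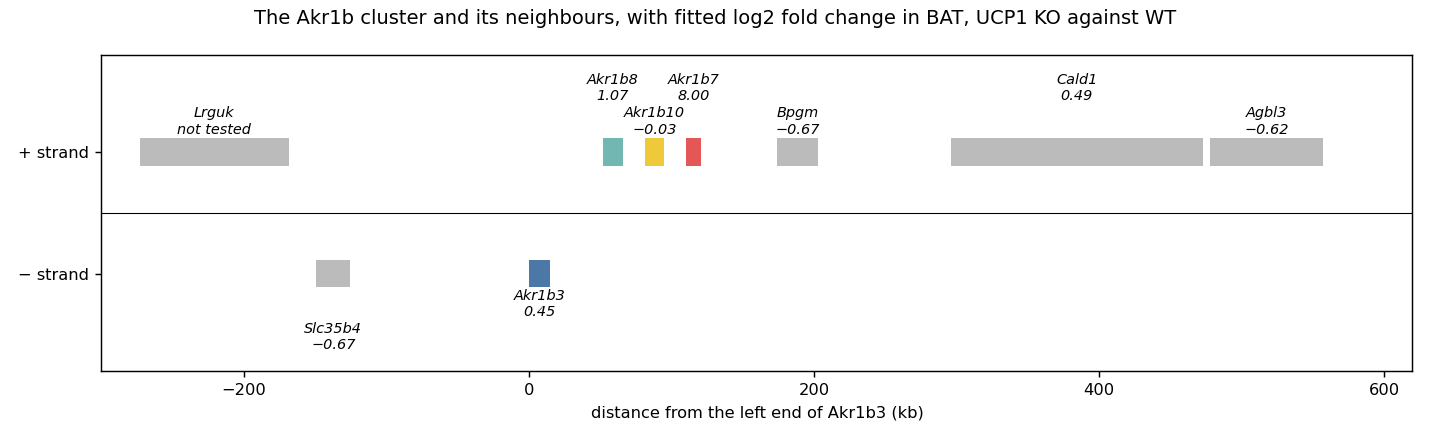
Map of the Akr1b cluster and its neighbours by distance from the left end of Akr1b3 (x axis, kb) and strand, with the fitted log2 fold change in BAT of UCP1 KO against WT under each gene name. The members are coloured and the neighbours grey, and Exoc4 lies outside the plot. Akr1b7 (8.00, which depends on the prior count) and Akr1b8 (1.07) differ from the flanking Bpgm and Slc35b4 (both -0.67) and from Akr1b10 (-0.03) between them.

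Patterns across tissue and genotype were compared as Pearson's r of mean log2 CPM over the 16 groups. This is a description, dominated by the tissues for Akr1b3, Akr1b8 and Akr1b10. The genes most like Akr1b3 were Fsd1l (r = 0.996), Tmem182 (0.995) and Nenf (0.993), and those most like Akr1b10 were Agpat1 (0.997), Nol3 (0.995) and Ppp1r14b (0.995). Akr1b8 was most like Ehd1 (0.989), Mesdc1 (0.988) and Adap1 (0.987). The closest to Akr1b7 were Epn3 (0.943), Vmn2r3 (0.894) and Trib3 (0.886). Akr1b7 averaged 12.4 CPM in UCP1 KO BAT and at most 0.996 CPM in any other group, so its r rests largely on a group that chose it. Among the members, Akr1b3 and Akr1b10 had an r of 0.907, while Akr1b7 had 0.310 with Akr1b8, -0.163 with Akr1b10 and -0.333 with Akr1b3.

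Within the 10 BAT libraries without UCP1, with each genotype's mean removed, Akr1b7 varied with Fam234b (r = 0.992), Plcd1 (0.990), Acsl4 (0.979) and Lrp11 (0.973). Fam234b had 382, 372, 731, 1255 and 1995 counts in the UCP1 KO libraries and Acsl4, which activates arachidonic acid, 1479, 1356, 2391, 3331 and 4211, in the order in which Akr1b7 had 28, 27, 142, 671 and 2038. These values share their libraries and carry no test. The other members varied less with Akr1b7 there, with an r of 0.537 for Akr1b10, 0.250 for Akr1b3 and -0.424 for Akr1b8.

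No other reductase of the superfamily was called by edgeR in BAT. Of 13 other aldo-keto reductase genes in the files 7 were tested, with a median log2 difference of -0.09 in UCP1 KO against WT (0.0097 over all genes tested) and -0.11 in dKO against FGF21 KO (0.0037 over all genes). An unadjusted p under 0.05 was found for 3 and 4 of them, against 7698 and 6287 of all 15729 genes. DESeq2 called 1 and 0 of them, against 4765 and 3065 of all genes. Akr1b16 was not analysed here. Akr1a1, the general aldehyde reductase, was at 0.27 (edgeR adjusted p = 0.0143) in UCP1 KO against WT. Over the next lists, shares are to be read against the 25.2% and 13.5% of all genes called in the same comparisons.

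The polyol pathway around Akr1b3 showed a single call in BAT. Of its 9 tested genes only Aldoc, an aldolase, rose in UCP1 KO against WT (log2 difference 2.20, edgeR adjusted p = 0.00799), and that call was lost in 11 of 20 fits that left out 1 library. Without each library in turn its log2 difference ranged from 0.92 to 2.49, lowest without UCP1 KO replicate 5 (edgeR adjusted p = 0.0747). Sord, which makes fructose from sorbitol, was at -0.31 (edgeR adjusted p = 0.0103) and Khk, the fructose kinase, at -0.10 (edgeR adjusted p = 0.432). No gene of the list was called in dKO against FGF21 KO by edgeR or DESeq2. An unadjusted p under 0.05 was found there for 2 of them, against 6287 of all 15729 genes. In iWAT, Slc2a5, the fructose transporter, was the only gene of all 7 lists that edgeR called in UCP1 KO against WT (DESeq2 called 5 genes), with between 135 and 557 counts per UCP1 KO library and between 5 and 36 per WT library (12.7 ± 8.14 against 0.340 ± 0.261 CPM, SD, n = 5, log2 difference 5.19, edgeR adjusted p = 0.00762). That call was lost in 12 of 20 fits that left out 1 library, with log2 differences of 4.97 to 5.75. Of all 17380 genes tested in iWAT, edgeR called 0.61% and DESeq2 597 in UCP1 KO against WT.

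Genes of aldehyde clearance moved in both directions. In UCP1 KO against WT, 5 of 22 tested genes rose and 4 fell (median 0.03). Aldh1b1, a mitochondrial aldehyde dehydrogenase, was low with UCP1, with 4 to 11 counts in WT BAT and 2 to 15 in FGF21 KO, against 128 to 959 for UCP1 KO and 96 to 241 for dKO. It rose by 5.64 on the log2 scale in UCP1 KO against WT (edgeR adjusted p = 7.35e-07) and by 3.71 in dKO against FGF21 KO (edgeR adjusted p = 3.93e-05). The carbonyl reductase Cbr3 rose by 3.77 (edgeR adjusted p = 1.27e-05) and 2.87 (edgeR adjusted p = 0.000239). Aldh6a1, of valine breakdown, had the largest fall (-0.64, edgeR adjusted p = 0.00104), and Aldh2 (-0.54, edgeR adjusted p = 0.00468) and Gsta4, which conjugates 4-hydroxynonenal (-0.51, edgeR adjusted p = 0.00675), fell in UCP1 KO as well. The calls of Aldh2 and Gsta4 were lost in 6 and 11 of 20 fits that left out 1 library, and with the muscle score as a covariate (edgeR adjusted p = 0.0112 and 0.0241). In dKO against FGF21 KO, 3 rose and 3 fell (median -0.01), and 2 to 8 genes were called when a library was left out and 3 with the muscle score as a covariate.

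Targets of NRF2, the transcription factor of the oxidative stress response, had the highest median of the 7 lists. In UCP1 KO against WT 9 of 21 tested targets rose and 1 fell (median 0.55), and in dKO against FGF21 KO 6 rose and 1 fell (median 0.62). Slc7a11, the cystine transporter, had at most 4 counts in a WT library and at most 3 in FGF21 KO, but between 23 and 123 without UCP1 alone and between 51 and 180 in dKO. With each control library at 3 counts, or at its own count where that was higher, UCP1 KO was at least 21.4-fold and dKO at least 30.2-fold higher, and the medians of the list were the same with these bounds. Hmox1, heme oxygenase, rose by 1.83 (edgeR adjusted p = 3.89e-05) and 1.51 (edgeR adjusted p = 0.000397) on the log2 scale. Nqo1, a quinone reductase, rose by 1.55 in UCP1 KO against WT (edgeR adjusted p = 6.27e-05), with 0.79 in dKO against FGF21 KO (edgeR adjusted p = 0.0169). The glutathione transferase Gstm1 fell by 0.69 (edgeR adjusted p = 4.24e-05) and by 0.65 (edgeR adjusted p = 0.000142).

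Of the prostaglandin list, 7 of 24 tested genes rose in UCP1 KO against WT and none fell (median 0.19), and 3 rose in dKO against FGF21 KO (median 0.23). Abcc4, a prostaglandin exporter, rose by 2.30 (edgeR adjusted p = 0.000129) and 1.91 (edgeR adjusted p = 0.00114) on the log2 scale, with 741 to 1087 counts in WT libraries, against 2169 to 17330 for UCP1 KO and 3193 to 6435 for dKO. Without UCP1 KO replicate 5 its log2 difference to WT was 1.55 (edgeR adjusted p = 9.37e-06). Hpgds, the hematopoietic prostaglandin D synthase, rose by 1.54 in UCP1 KO (edgeR adjusted p = 0.00018), where macrophage markers were also higher, and the part of macrophages was not tested. The cyclooxygenases Ptgs1 (-0.15, edgeR adjusted p = 0.441) and Ptgs2 (1.07, edgeR adjusted p = 0.214), the D synthase Ptgds (0.54, edgeR adjusted p = 0.272) and Ptgfr, the receptor for prostaglandin F2α (-0.70, edgeR adjusted p = 0.293), were not called.

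Osmotic stress, a known inducer of aldose reductase, and the nuclear receptors and C/EBP factors, some of which act on Akr1b7 in steroid-making tissue, completed the lists. Of 9 osmotic stress genes 1 rose in each comparison, the amino acid transporter Slc38a2 (0.76, edgeR adjusted p = 0.000239, and 0.65, edgeR adjusted p = 0.00179), with medians of 0.09 and 0.30. Nfat5, the osmotic stress factor, was at -0.11 (edgeR adjusted p = 0.368) and the inositol transporter Slc5a3 at 0.09 (edgeR adjusted p = 0.795) in UCP1 KO against WT. Of 10 nuclear receptor and C/EBP genes tested, 3 fell in UCP1 KO against WT (median -0.32), with Cebpa the largest fall (-1.27, edgeR adjusted p = 2.03e-06). Cebpa also fell in dKO against FGF21 KO (-0.91, edgeR adjusted p = 9.78e-05), where Nr1h2 fell and Nr5a2 rose (1.27, edgeR adjusted p = 0.00369). The Nr1h2 and Nr5a2 calls were lost in 13 and 4 of 20 fits that left out 1 library. The bile acid receptor Nr1h4 was at -0.42 (edgeR adjusted p = 0.352) and Nfe2l2, which encodes NRF2, at 0.29 (edgeR adjusted p = 0.0544) in UCP1 KO against WT. UCP1 KO and dKO differed in no gene of the 7 lists that passed the edgeR test, in BAT or in iWAT. Of all genes, edgeR called 0.0636% in BAT and 0.466% in iWAT. An unadjusted p under 0.05 was found for 16 of 102 and 22 of 108 list genes, against 2035 of 15729 and 2475 of 17380 genes. DESeq2 called 0 and 4 list genes, against 56 and 535 of all genes.

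**Figure D5:**
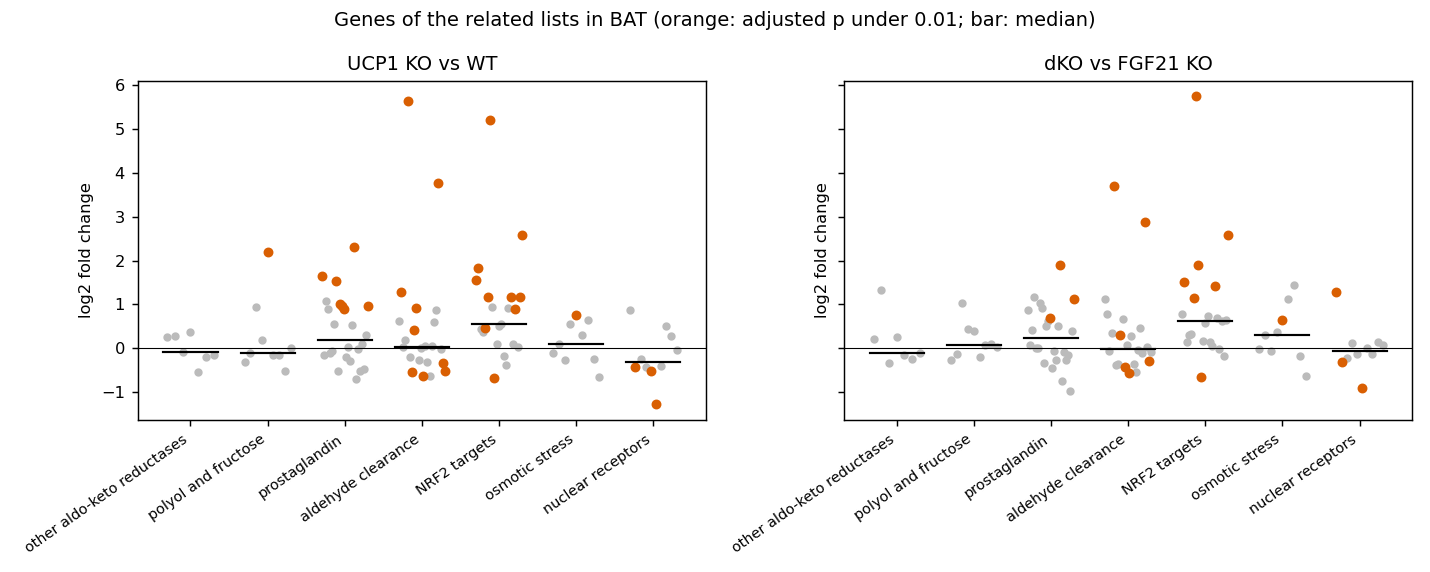
Fitted log2 fold change (y axis) of each tested gene of the 7 lists in BAT, for UCP1 KO against WT (left) and dKO against FGF21 KO (right). Orange points have an adjusted p under 0.01 and bars are list medians. The NRF2 targets have the highest median in both comparisons (0.55 and 0.62), and no other aldo-keto reductase is orange.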

How the data were processed

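Poly(A)-selected, stranded RNA libraries of 4 tissues and 4 genotypes (n = 5 per group) had been sequenced as paired-end reads of 100 bases. The authors aligned them with STAR to mm10 (GRCm38), counted reads per UCSC known gene with HTSeq and deposited the raw counts, unnormalized whole numbers, with 1 file for each library. The row that names no gene (1.32e-05% of counts) was left out, and no pair of libraries of a tissue was identical. Depth was 28691377 to 50380696 counts per library. Floors cover counting error only, and intervals of 2 SE come from the edgeR fits.

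A gene was tested in a tissue if its highest count there exceeded 15, its summed count 75, and at most 10 libraries had 0. The test was done with edgeR's quasi-likelihood test (edgeR 4.0.16, limma 3.58.1, R 4.3.3, TMM factors, Benjamini-Hochberg adjustment over all genes tested, called under 0.01), and the code was first tested on simulated data. CPM are scaled by TMM factors, log2 CPM have a prior count of 2 and a bound uses a floor of 3 counts. Tissue levels in WT were compared by exact permutation. Alternatives were DESeq2 (1.42.0), RLE factors, no filter, fits of 2 genotypes only, covariates for muscle or lymph node scores and leaving out each library. The same alternatives for the gene lists were added after seeing the data.

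Members and lists were chosen with earlier results of these data known. Akr1b7 is described without a test, since its high groups chose it or carried it past the filter. Named by rule were the members, their closest neighbours and patterns, a preset few of each list, and the called gene of each list with the largest rise and fall. Cbr3, Hpgds and Nr1h2 were named after their values were seen. A further gene that the rule on patterns names is not reported here.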

Additional observations from a re-analysis of the deposited data

Results flagged for a closer look

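Of 55 groups of 5 libraries tested for a library far from the others (Dixon's ratio of gap to range of log2 CPM above 0.71), 5 held one, and chance gives about 1 in 20 groups. Akr1b3 was lowest in iWAT UCP1 KO replicate 2 (ratio 0.751), which is also the UCP1 KO library with a high lymph node score, whose part in the value was not tested. Akr1b3 was lowest in liver WT replicate 2 (0.867) and highest in muscle dKO replicate 1 (0.745). Akr1b8 was highest in liver UCP1 KO replicate 1 (0.786), and Akr1b10 was lowest in liver WT replicate 4 (0.821).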

How the results depend on the processing

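No paired analysis was possible because replicate numbers were given in accession order only and no label tied the libraries of a mouse. For the members, the count of calls (0 in edgeR) was 1 with DESeq2 and 0 to 1 when a library was left out for UCP1 KO against dKO in BAT. For UCP1 KO against WT in iWAT it was 2 with DESeq2 and at an adjusted p under 0.05, 1 with the lymph node covariate and 1 in libraries of low lymph node score only, and 0 to 2 leaving out a library. For UCP1 KO against dKO in iWAT it was 1 with DESeq2, at 0.05 and with the lymph node covariate, and 0 to 1 leaving out a library. These calls were Akr1b7 in BAT, and Akr1b10 and Akr1b7 in iWAT, and those of Akr1b7, chosen for or passed by its UCP1 KO libraries, support nothing. Of all genes, DESeq2 called 56 of 15729 for UCP1 KO against dKO in BAT. In iWAT it called 597 of 17380 for UCP1 KO against WT and 535 for UCP1 KO against dKO. The log2 difference of Akr1b8 between UCP1 KO and dKO in BAT (0.02) turned to -0.027 with the muscle covariate and ranged from -0.086 to 0.078 leaving out a library. The fitted Akr1b7 value of dKO against FGF21 KO in BAT (5.55) was 7.36 with the muscle covariate and 5.28 to 6.08 leaving out a library.

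For the lists in BAT, counts in UCP1 KO against WT became 1 (other aldo-keto reductases, from 0) and 2 (polyol, from 1) with DESeq2, and ranged from 0 to 1 and 0 to 2, with 1 to 2 for osmotic stress, leaving out a library. Of all 15729 genes, DESeq2 called 4765 in UCP1 KO against WT and 3065 in dKO against FGF21 KO. In dKO against FGF21 KO, DESeq2 called 5 prostaglandin genes (from 3) and 12 NRF2 targets (from 7), and the muscle covariate left 3 aldehyde genes (from 6). Leaving out a library gave 0 to 1 other reductases, 0 to 1 polyol, 2 to 5 prostaglandin, 2 to 8 aldehyde and 1 to 3 nuclear receptor genes. The cause was not tested. Of 1281 values of Akr1b3, Akr1b8 and Akr1b10 under the alternatives 83 had the other sign, and 0 of these were called. The low counts of Akr1b7 limit its folds to bounds.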
